A study of Mus musculus with 2 samples.

Results

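The genes described here encode 10 enzymes that remove superoxide and peroxides, namely the peroxiredoxins Prdx1, Prdx2, Prdx5 and Prdx6, the glutathione peroxidases Gpx1, Gpx4 and Gpx8, the superoxide dismutases Sod1 and Sod2, and catalase (Cat). They were taken by gene symbol from the deposited table of read counts, in which all 10 were found among 24532 genes and all 10 passed a minimum mean of 5 CPM (counts relative to library size, after scaling), as did 9935 genes in all. Messenger RNA was measured in mouse cardiac myofibroblasts, the contractile, matrix-secreting form that fibroblasts take after injury, isolated from C57BL/6 hearts 3 days after myocardial infarction. Cells were transfected with 12.5 nM of an siRNA against Bcat1 (siBcat1) or with 12.5 nM of a control siRNA (siControl), and both groups were cultured for 72 hours, in medium with serum and with the same transfection reagent. The protocols in the labels name 1 catalogued siRNA against Bcat1. Each group had 1 library, so no test was made, no p-value is given and no difference has a replicate check. In bulk RNA, fewer cells of a type and less RNA per cell cannot be told apart.

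Superoxide leaks from the respiratory chain and is made by oxidases at membranes. Superoxide dismutases turn it into hydrogen peroxide, which peroxiredoxins, glutathione peroxidases and catalase reduce to water. Peroxiredoxins draw their electrons mainly from thioredoxin and glutathione peroxidases mainly from glutathione, whereas catalase needs no such partner and works inside peroxisomes. In fibroblasts of the injured heart, hydrogen peroxide is known as a signal as well as a source of damage.

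The siBcat1 library held 104581819 counts and the siControl library 127309329. Bcat1, the gene targeted, had 99 counts in siBcat1 and 8891 in siControl, a log2 fold of -6.11. Fibroblast markers were high in both libraries, and all 10 markers listed for that lineage passed the minimum. Brackets beside a log2 fold (siBcat1 over siControl, in counts scaled by trimmed mean of M values) give an exact 95% interval of counting error only, which is too narrow where reads were PCR copies or mates counted separately.

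Most of the 10 enzyme genes were higher in siBcat1. At least 1.5-fold higher were 8 of 10, against 17.6% of all genes measured, none was at least 1.5-fold lower, against 25.6% of all genes, and 2 lay between. At least 2-fold higher were 6 of 10, against 5.58% of all genes. The median log2 fold of the 10 genes was 1.08, and that of all 9935 genes was -0.06. Together the 10 genes took 0.575% of all counts in siBcat1 and 0.290% in siControl. Short transcripts were generally higher in siBcat1, and 7 of the 10 genes fall in the 2 shortest of 10 length groups of all genes. The log2 folds of named genes are therefore also given length-adjusted, which means after the trend of log2 fold on transcript length over all genes was subtracted. The length used was the one that the deposited counts and TPM (a level scaled for transcript length and depth) imply together. This scale was added after the data were seen. On that scale 5 of 10 were at least 1.5-fold higher, against 12.3% of all genes. None was at least 1.5-fold lower, against 13.7%, and the median was 0.61. The planned setting, with lengths matched in the annotation, gave 4 of 10 higher, against 12.8% of all genes, with a median of 0.53.

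**Figure D1:**
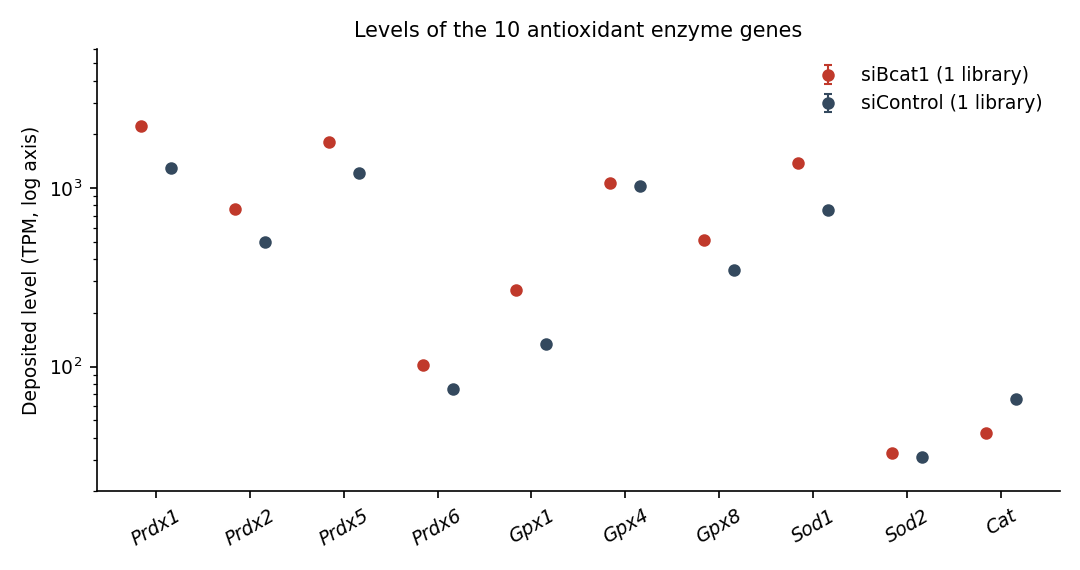
Deposited TPM (log axis) of each gene in the siBcat1 library (left point) and the siControl library (right point), with exact intervals of counting error mostly hidden by the points. Prdx1 is highest in both libraries and Sod2 lowest, and Cat is the gene whose siBcat1 point is below its siControl point.

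The levels span a wide range. In TPM, which can be compared between genes, Prdx1 was highest with 2223 in siBcat1 and 1299 in siControl, and Sod2 was lowest with 33.0 in siBcat1 and 31.0 in siControl. From the top, the siBcat1 library had Prdx1, Prdx5, Sod1, Gpx4, Prdx2, Gpx8, Gpx1, Prdx6, Cat and Sod2. The siControl library had the same order except that Gpx4 stood above Sod1. The Sod1 level was 1.30 times that of Gpx4 in siBcat1 and 0.733 times in siControl. All neighbours in either order were apart by more than counting error, the closest being Prdx1 and Prdx5 in siControl with 1299 and 1214 TPM. How far these gaps exceed the spread between cultures cannot be given with 1 library a group.

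The peroxiredoxins were higher in siBcat1 throughout. Their summed level was 4894 TPM in siBcat1 and 3086 TPM in siControl. Prdx1, an abundant cytosolic peroxiredoxin recycled by thioredoxin (chromosome 4, 116685544 to 116700822, plus strand, GRCm38), had 218349 counts in siBcat1 and 116650 in siControl. This is a log2 fold of 1.28 [1.27 to 1.29] and a length-adjusted value of 0.83. Prdx2, its close cytosolic relative and a major protein of red blood cells (chromosome 8, 84969587 to 84974834, plus strand), had 75859 counts in siBcat1 and 45238 in siControl. Its log2 fold was 1.12 [1.10 to 1.14], with 0.68 length-adjusted. Prdx1 and Prdx2 have nearly the same implied length, 1417 and 1431 bases, so the trend on length took almost the same amount from both.

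Prdx5 is found in mitochondria, peroxisomes and cytosol (chromosome 19, 6906697 to 6910106, minus strand). It had 85951 counts in siBcat1 and 52907 in siControl, a log2 fold of 1.08 [1.06 to 1.09], and was second to Prdx1 in level with 1802 TPM in siBcat1 and 1214 TPM in siControl. Its implied length of 688 bases is among the shortest, and its length-adjusted value was 0.26, the smallest of the peroxiredoxins. Prdx6, which uses glutathione and also acts on phospholipids (chromosome 1, 161240112 to 161251219, minus strand), had 16754 counts in siBcat1 and 11237 in siControl. Its log2 fold of 0.95 [0.92 to 0.99] was the smallest of these 4 genes before adjustment, and its length-adjusted value of 0.87 the largest. Prdx6b, a copy 90.1% identical to Prdx6, is in the count table with 0 counts in both libraries. The order among the peroxiredoxins thus depended on the length adjustment, while all 4 were above 0 on both scales.

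For some genes the length matched in the annotation differed from the implied one, and the adjusted value moved with it. With matched GENCODE lengths, 4 of the 10 genes were at least 1.5-fold higher, against 12.8% of all genes, and none lower, against 14.3%. On that scale Prdx1 had 1.19, Prdx2 0.73, Prdx5 0.54 and Prdx6 0.43. Matched lengths were 2294 bases for Prdx1, 1262 for Prdx5 and 1294 for Prdx6, where the deposited values imply 1417, 688 and 2378 bases. Exons of Prdx2 share bases with Junb and Rnaseh2a on the opposite strand, and those of Prdx5 with Trmt112. Whether strand was used in counting is not given in the sources used here, so reads there could belong to either gene. Those 3 neighbours had 8781, 3614 and 5108 counts in siBcat1 and 12736, 2807 and 3892 in siControl.

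The glutathione peroxidases differed most among themselves. Gpx1 and Gpx4 are selenoproteins, in which a TGA codon inside the reading frame is read as selenocysteine, and Gpx8 has cysteine at that place. The 30 bases of coding sequence around the codon, from GENCODE M21 (GRCm38), show the difference, with that codon in capitals and each sequence given 5′ to 3′ on the coding strand. They are shown because the codon sets which of these messages depend on the selenocysteine machinery.
Gpx1: gtcgcgtctctcTGAggcaccacgatccgg
Gpx4: gtggcctcgcaaTGAggcaaaactgacgta
Gpx8: gtggctagtgacTGCcgcttcacagacaag
They lie at chr9:108339439-108339468 (plus strand, exon 1 of 2) for Gpx1, chr10:80054725-80054754 (plus strand, exon 3 of 7) for Gpx4 and chr13:113045646-113045675 (minus strand, exon 2 of 3) for Gpx8. Messages of Gpx1, whose TGA lies upstream of an exon junction, are known to be broken down when selenium is short. Those of Gpx4 are known to be spared, although their TGA lies upstream of an exon junction too. The TGA ends 105 bases before the last exon junction in Gpx1 and 342 bases before it in Gpx4.

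Gpx1, the enzyme that reduces hydrogen peroxide in cytosol and mitochondria (chromosome 9, 108338903 to 108340343, plus strand), had the largest log2 fold of the 10 genes. It had 19447 counts in siBcat1 and 8883 in siControl, with a log2 fold of 1.51 [1.47 to 1.54]. Its level was 268 TPM in siBcat1 and 134 TPM in siControl. The length-adjusted value was 0.88 with either length. Gpx4, which reduces lipid peroxides in membranes and holds back ferroptosis (chromosome 10, 80047166 to 80056439, plus strand), had 70621 counts in siBcat1 and 62779 in siControl. Its log2 fold was 0.55 [0.53 to 0.56], under the 1.5-fold rule, and its levels were 1063 TPM in siBcat1 and 1034 TPM in siControl. Length-adjusted it had -0.12, so its direction was not the same on all scales. Between these 2 selenoproteins, the Gpx4 level was 3.96 times that of Gpx1 in siBcat1 and 7.71 times in siControl. The log2 fold of Gpx4 was 0.96 below that of Gpx1, a gap well beyond the counting interval of either fold, and their implied lengths of 959 and 1045 bases are alike.

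Gpx8, a membrane protein of the endoplasmic reticulum (chromosome 13, 113042753 to 113046410, minus strand), had 36298 counts in siBcat1 and 22247 in siControl. Its log2 fold of 1.08 [1.06 to 1.11] and length-adjusted value of 0.44 lay between those of Gpx1 and Gpx4. Reads of Gpx4 may be shared, since 2 other annotated transcripts match it with at least 90% identity over at least 50% of its length, one of them the pseudogene Gpx4-ps2, and the higher identity is 99.7%. Neither is in the count table.

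Among other genes of these families, the selenocysteine and cysteine forms did not separate. Gpx3, the secreted selenoprotein, had a log2 fold of 0.92 and 0.52 length-adjusted, with 271 TPM in siBcat1 and 203 TPM in siControl. Gpx7, a cysteine form in the endoplasmic reticulum like Gpx8, had 0.62 and 0.07 length-adjusted, with 146 TPM in siBcat1 and 135 TPM in siControl. The TGA forms therefore ran from 0.55 to 1.51 and the cysteine forms from 0.62 to 1.08.

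Sod1, the copper and zinc superoxide dismutase of the cytosol (chromosome 16, 90220754 to 90226329, plus strand), had 62252 counts in siBcat1 and 31085 in siControl. Its log2 fold was 1.38 [1.36 to 1.40] and its level 1386 TPM in siBcat1 and 757 TPM in siControl. At an implied length of 648 bases it is the shortest of the 10, and its length-adjusted value was 0.54. A sequence annotated as Gm8566, which is not in the count table, is 97.8% identical to Sod1, so reads could be shared. Ccs, the chaperone that loads copper onto Sod1, is in the partner list below.

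Sod2, the manganese enzyme of the mitochondrial matrix (chromosome 17, 13006846 to 13040063, plus strand), had 8739 counts in siBcat1 and 7521 in siControl, a log2 fold of 0.59 [0.55 to 0.64]. Its level was 33.0 TPM in siBcat1 and 31.0 TPM in siControl. Sod2 has a long transcript, and long transcripts were mostly lower in siBcat1. In its group of 994 genes with implied lengths of 3449 to 4088 bases, the median log2 fold was -0.34, and 5.03% of genes were at least 1.5-fold higher. Its length-adjusted value of 0.91 was the largest of the 10 genes (1.30 with the matched length of 5861 bases). The log2 fold of Sod1 was 0.79 above that of Sod2 (counting interval of the difference 0.74 to 0.83) before adjustment. After adjustment Sod2 was the higher of the pair.

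Catalase was the gene of the 10 with a log2 fold below 0. Cat (chromosome 2, 103453849 to 103485160, minus strand) had 7473 counts in siBcat1 and 10677 in siControl, with a log2 fold of -0.14 [-0.18 to -0.10]. Its level was 42.3 TPM in siBcat1 and 66.1 TPM in siControl. The length-adjusted value was -0.17, and Cat was below 0 in all 13 settings computed, from -0.64 to -0.01, though past 1.5-fold only with TPM as deposited. The median of all genes on the log2(TPM + 1) scale was -0.52, and less that median Cat had -0.11. The log2 fold of Prdx1 was 1.42 above that of Cat (counting interval of the difference 1.38 to 1.46), and that of Gpx1 was 1.65 above it. In TPM, the ratio of Prdx1 to Cat was 52.6 in siBcat1 and 19.7 in siControl.

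**Figure D2:**
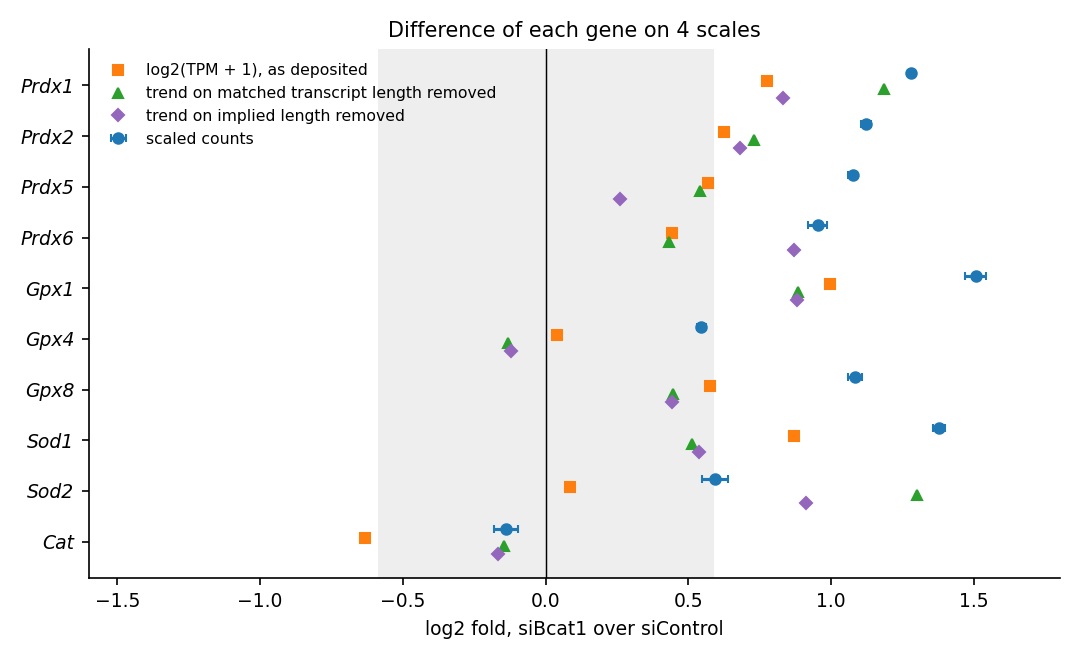
Log2 fold of siBcat1 over siControl for each gene in scaled counts (circles, with exact intervals of counting error), in log2(TPM + 1) as deposited (squares), and after removal of the trend on matched transcript length (triangles) or on implied length (diamonds), with the range within 1.5-fold in grey. Prdx1, Prdx2 and Gpx1 lie to the right of the grey range on all 4 scales, Gpx4 falls on both sides of 0, and Cat lies below 0 on all 4.

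The trend on transcript length reached these genes unequally. Of the 10 genes, 5 fell in the shortest of 10 equal groups of genes by implied length (up to 1182 bases), namely Gpx1, Gpx4, Gpx8, Prdx5 and Sod1. In that group the median log2 fold was 0.74 and 66.5% of genes were at least 1.5-fold higher, so the folds of Gpx8 and Prdx5 near 1.08 lay 0.44 and 0.26 above the curve. Prdx1 and Prdx2 fell in the next group, in which 38.7% were at least 1.5-fold higher. Prdx6 fell among genes of which 16.8% were, with a median of 0.14, and Cat among genes of which 11.4% were, with a median of -0.01. With TPM as deposited, 4 of the 10 genes were at least 1.5-fold higher, against 3.56% of all genes, and 1 was lower, against 46.5%. These 4 were Prdx1, Prdx2, Gpx1 and Sod1.

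**Figure D3:**
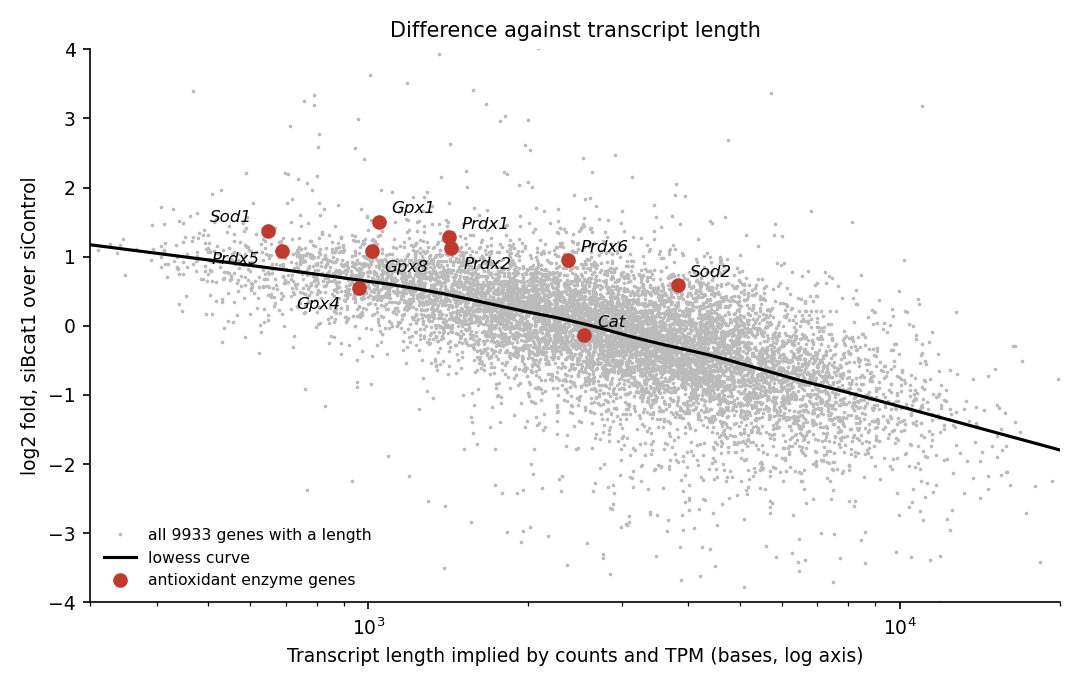
Log2 fold of siBcat1 over siControl against the transcript length implied by counts and TPM (log axis) for 9933 genes (grey, a few lie outside the axes), with the lowess curve and the 10 enzyme genes in red. Sod2, Gpx1, Prdx6 and Prdx1 lie farthest above the curve, while Gpx4 and Cat lie slightly below it.

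Promoters of the 10 genes were searched for letters linked to the oxidant-responsive factor NRF2 and to AP-1. The sequences are RefSeq windows on GRCm38.p6, of 300 bases around each gene's start. Of the 10 genes, 9 have at least 1, with 12 windows in all and no entry for Prdx6. TGACNNNGC, the core of the antioxidant response element, was searched on both strands. It occurs in 12.4% of all 32851 windows and in 14.5% of the 10313 windows of measured genes. It was found in Prdx1 and Sod1, both on the strand opposite to the gene, 133 and 56 bases before the RefSeq start of the window. For both genes that start differs from the gene start given above. TGAGTCA, the AP-1 site, occurs in 5.20% of all windows and in 3.58% of those of measured genes. It was found at 2 places in Prdx1 and in no other of these genes. In Prdx1 the site nearer to the start overlaps the antioxidant element. The stretches that hold these matches, upstream of the start and 5′ to 3′ on the gene's strand, have the matched letters in capitals.
Prdx1: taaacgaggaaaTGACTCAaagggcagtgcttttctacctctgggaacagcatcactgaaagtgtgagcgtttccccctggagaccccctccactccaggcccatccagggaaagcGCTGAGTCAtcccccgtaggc
Sod1: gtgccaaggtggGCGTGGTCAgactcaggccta
They lie at chr4:116685350-116685486 and chr16:90220694-90220726, both on the plus strand. A match is a description of letters and no sign of binding, and the absence of one says only that these letters are not in the window.

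Of 8 other genes of the same families, 5 were measured and Gpx2, Gpx5 and Gpx6 had no counts in either library. At least 1.5-fold higher were 3 of 5 and lower 0, against 17.6% and 25.6% of all genes, with a median log2 fold of 0.62. Length-adjusted, 0 of 5 were higher, against 12.3% of all genes, with a median of 0.26. On matched length 1 of 5 was, Sod3 with 0.81, against 12.8%. Prdx4 and Gpx3, with 0.91 and 0.92, lay above Gpx4, Sod2 and Cat of the 10 genes before adjustment. Prdx4, the peroxiredoxin of the endoplasmic reticulum, had 0.91 [0.89 to 0.93] and 0.26 length-adjusted. Prdx3, the mitochondrial one, had 0.53 [0.49 to 0.57] and 0.09 length-adjusted, with 118 TPM in siBcat1 and 116 TPM in siControl. Sod3, the extracellular superoxide dismutase, had 0.52 [0.49 to 0.55] and 0.33 length-adjusted, with 115 TPM in siBcat1 and 114 TPM in siControl.

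Among partners that recycle these enzymes, Txn1 was higher in siBcat1 and Txnrd1 lower. Of 16 thioredoxin and glutathione genes, 7 were at least 1.5-fold higher, 2 lower and 7 between, with a median log2 fold of 0.52. Of all genes, 17.6% were higher and 25.6% lower by that rule. Length-adjusted, 3 were higher and 1 lower, against 12.3% and 13.7% of all genes, with a median of 0.27. On matched length 5 were higher and 1 lower, against 12.8% and 14.3%. Txn1, the thioredoxin that reduces Prdx1 and Prdx2, had 1348 TPM in siBcat1 and 770 TPM in siControl, a log2 fold of 1.31 [1.30 to 1.33] and 0.69 length-adjusted. Txnrd1, the selenoprotein reductase that recharges it, had 21.8 TPM in siBcat1 and 101 TPM in siControl, with -1.70 [-1.75 to -1.66] and -1.47 length-adjusted. The ratio of Txn1 to Txnrd1 in TPM was 61.8 in siBcat1 and 7.64 in siControl. Glrx5, a mitochondrial glutaredoxin of iron-sulfur cluster assembly, had 1.06 and Ggct, an enzyme of glutathione breakdown, had 1.01, with 0.42 and 0.53 length-adjusted. On matched length these had 1.14 and 1.36, past 1.5-fold. The copper chaperone Ccs had 0.54, within 1.5-fold, and -0.08 length-adjusted, so its direction turned.

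The list of other selenoproteins had a higher median log2 fold than that of the machinery that makes them, before and after length adjustment. Measured were 11 selenoprotein genes outside the peroxidases and the thioredoxin reductases, some found under older symbols. At least 1.5-fold higher were 4, against 17.6% of all genes, and lower 0, against 25.6%, with a median of 0.50. Length-adjusted, 3 were higher and 0 lower, against 12.3% and 13.7% of all genes, with a median of 0.18. Both thioredoxin reductases are selenoproteins too and were counted among the partners, Txnrd1 with the -1.70 given above and the mitochondrial Txnrd2 with -0.12 (-0.35 length-adjusted). Selenow (listed as Sepw1), a small cytosolic selenoprotein, had 1154 TPM in siBcat1 and 356 TPM in siControl, a log2 fold of 2.20 [2.17 to 2.23] and 1.40 length-adjusted. Selenom (Selm), Selenoh (2700094K13Rik) and Selenok (Selk) had 1.29, 1.20 and 1.06, with 0.59, 0.38 and 0.43 length-adjusted. Of 9 genes of selenoprotein synthesis, 2 were at least 1.5-fold higher and 2 lower, against 17.6% and 25.6% of all genes. Their median was -0.28. Length-adjusted, 0 were higher and 1 lower, against 12.3% and 13.7% of all genes, with a median of -0.01. On matched length 0 passed 1.5-fold in either direction, against 12.8% of all genes higher and 14.3% lower. Pstk, the kinase that phosphorylates seryl-tRNA on the way to selenocysteine, had 1.13, and Trnau1ap, a protein bound to that tRNA, had 0.97. Sepsecs, the synthase of the last step, had -0.82 from 370 counts in siBcat1 and 850 in siControl, and Sephs1 had -0.61. Length-adjusted, these 4 had 0.55, 0.38, -1.05 and -0.01. The value of Sepsecs rested on the length used, with -0.23 on its matched length of 5252 bases, where the deposited values imply 1927.

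Genes for the peroxisome, where catalase works, had a median log2 fold of 0.05 over 11 measured members (0.14 length-adjusted). At least 1.5-fold higher were 3 and lower 1, against 17.6% and 25.6% of all genes. Length-adjusted these were 3 and 0, against 12.3% and 13.7%. Pex2, a ubiquitin ligase of peroxisomal import, had 39.4 TPM in siBcat1 and 17.0 TPM in siControl, with a log2 fold of 1.71 [1.64 to 1.78] and 1.53 length-adjusted. Pex7, an import receptor, had 1.02 and Pex16 0.77. Length-adjusted, Pex7 had 0.78 and Pex16 0.33. Among 8 measured sources of superoxide and peroxide, 1 was at least 1.5-fold higher and 0 lower, against the same 17.6% and 25.6%. Their median was 0.24. Length-adjusted, with either length, 3 others were higher and 0 lower. On implied length the shares of all genes were 12.3% and 13.7%, and the median of the sources was 0.29. Cyba, a membrane subunit of NADPH oxidases, had 422 TPM in siBcat1 and 295 TPM in siControl, with 1.02 [0.99 to 1.06] and 0.25 length-adjusted. Nox4, the oxidase of myofibroblasts, and Maoa, a monoamine oxidase, had 0.42 each, with 0.73 and 0.80 length-adjusted. Ero1l, an oxidase of the endoplasmic reticulum that makes hydrogen peroxide, had 0.24 and 0.67 length-adjusted.

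**Figure D4:**
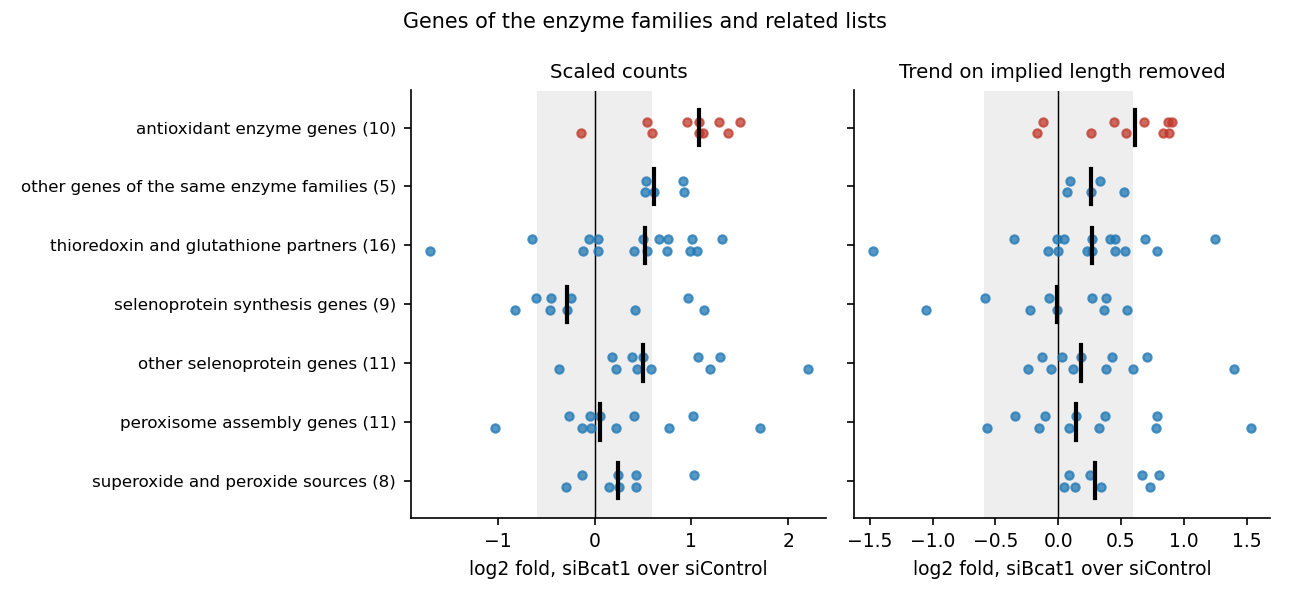
Log2 fold of siBcat1 over siControl for each measured gene of the lists (number measured in brackets; black bars are medians), in scaled counts on the left and after removal of the trend on implied length on the right, with the range within 1.5-fold in grey. The median of the 10 enzyme genes is 1.08 on the left and 0.61 on the right, and the selenoprotein synthesis genes lie on both sides of 0 on the left and on the right.

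The 10 fibroblast and myofibroblast markers summed to 21938 CPM in siBcat1 and 34940 CPM in siControl. Of these, 1 was at least 1.5-fold higher (Thy1) and 4 lower (Col1a1, Col1a2, Col3a1 and Postn), against 17.6% and 25.6% of all genes. The other 5 lay between, among them Vim with a log2 fold of 0.56 and Acta2 with -0.11. In all, 2 were above 0 and 8 below. Length-adjusted, 0 were higher and 4 lower, against 12.3% and 13.7% of all genes. Col1a1 had 4345 CPM in siBcat1 and 11058 CPM in siControl, whereas Vim had 6985 CPM in siBcat1 and 4724 CPM in siControl. Macrophage markers also differed between the libraries. Of 10 listed, 1 passed the minimum, 4 had no counts in either library (Adgre1, Ptprc, C1qa and Fcgr1), and their summed level was 28.8 CPM in siBcat1 and 10.3 CPM in siControl. Lyz2, a lysozyme of myeloid cells, made up most of it with 21.3 CPM in siBcat1 and 5.46 CPM in siControl. Below the minimum, Cd68 had 1.53 CPM in siBcat1 and 0.50 CPM in siControl. Cd14 had 3.22 CPM in siBcat1 and 1.54 CPM in siControl. Csf1r, the receptor that macrophages need, had 2.69 CPM in siBcat1 and 2.82 CPM in siControl. Itgam had 3 counts in siBcat1 and 0 in siControl, and C1qb had 0 in siBcat1 and 4 in siControl. The 10 enzyme genes summed to 5940 CPM in siBcat1 and 2809 CPM in siControl. Among 5 mesothelial markers, the summed level was 16.7 CPM in siBcat1 and 30.9 CPM in siControl. Its members went opposite ways, with 405 counts of Upk3b in siBcat1 and 2320 in siControl, and 766 counts of Krt19 in siBcat1 and 186 in siControl. Among 8 cardiomyocyte markers the sum was 10.4 CPM in siBcat1 and 46.4 CPM in siControl, nearly all of it Tnnt2. The 7 endothelial markers summed to 51.2 CPM in siBcat1 and 48.7 CPM in siControl, most of it Tek. Others of these went opposite ways, with 701 counts of Emcn in siBcat1 and 388 in siControl, and 305 and 632 of Cdh5. The 6 markers of smooth muscle and pericytes summed to 8.75 CPM in siBcat1 and 14.2 CPM in siControl. The part of other cell types in these differences was not tested.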

How the data were processed

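The data are 2 RNA libraries, 1 of siBcat1 and 1 of siControl cells, grouped by treatment label. Libraries were made with a stranded mRNA kit, per the labels' protocols. The submitters' processing notes name build mm10 and the tools FastQC, Trimmomatic, HISAT2 and StringTie, with no roles or settings. The deposited counts are whole, unnormalized reads per gene (per the file headers). The TPM values are also as the authors deposited them.

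Library sizes were corrected by TMM (trimmed mean of M values; edgeR 4.0.16, R 4.3.3), so that 1 CPM equals 101 counts in siBcat1 and 131 in siControl. Intervals are exact binomial 95% intervals for folds and Wald intervals for differences of 2 folds, and cover counting error only. A gene was kept if its mean reached 5 CPM, and 1.5-fold was the rule of size. Length trends were removed by lowess (fraction 0.3, 3 iterations, statsmodels 0.14.6). The length was either the median of GENCODE M21 transcripts matched by RefSeq accession (9886 of 9935 genes) or the one that counts and TPM imply. Implied lengths were scaled in each library so that their median ratio to the matched lengths was 1. Copies were sought with BLAST. The calculations were tested on simulated data.

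The genes, lists and rules were chosen with earlier results of these data known. Named are the 10 enzyme genes, Bcat1, all measured genes of the same families and from each other list up to 4 genes farthest from 0 in log2 fold, and Ccs was added as the Sod1 chaperone. Prdx6b, Txnrd2, Ero1l and the single cell type markers named were added after their values were seen. Single values of a few genes that this rule names are left out here. Alternatives covered other scaling (DESeq2 1.42.0, upper quartile, totals), TPM with a pseudocount of 1 or 0.1, other minimum levels, length and GC trends, 2-fold, whole intervals and the mean. Precision is set by depth, and the spread between cultures was not measured.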

Additional observations from a re-analysis of the deposited data

How the results depend on the processing

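The count of enzyme genes at least 1.5-fold higher (8 of 10) was between 6 and 9 in every setting except 4 with TPM at either pseudocount, 4 with the trend on matched length removed and 5 with the trend on implied length removed, a setting added after the data were seen. At least 1.5-fold lower were 0 in every setting except 1, Cat, with TPM at either pseudocount. The median log2 fold (1.08) was 0.99 with library totals, 1.21 with upper-quartile factors, 0.57 with TPM at either pseudocount, 0.53 with matched length, 0.65 with length and GC, 0.61 with implied length removed, and 0.94 as a mean. The median of all genes moved by -0.46 with TPM (pseudocount 1), and with that median subtracted 8 genes were again higher, with a median of 1.09. Upper-quartile factors moved it by 0.13. DESeq2 size factors and other minimum levels left both counts as they were. Gpx4 was above 0 in 10 of 13 settings, from -0.13 to 0.67, Cat was below 0 in all 13, and the other 8 genes were above 0 in all 13. No paired analysis was possible because each group has 1 library.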
